A study of Mus musculus with 16 samples.

Results

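The repressor arm of the circadian clock was described in tibialis anterior muscle through 8 genes: the Period genes Per1, Per2 and Per3, the cryptochromes Cry1 and Cry2, Ciart, and the basic helix-loop-helix genes Bhlhe40 and Bhlhe41. The genes were picked by symbol from the 14538 genes of the deposited table, and all 8 have a row and passed the minimum for testing, a mean of 10 normalized counts over the libraries. They were chosen with the levels of the pair-fed and GDF15-treated mice relative to vehicle-treated mice already known, and with those the difference between GDF15-treated and pair-fed mice. The 3 comparisons between groups are therefore given for clock genes as a description, without p-values for single genes. The thresholds of the study are applied to them only to count genes. For GDF15-treated against pair-fed mice, genes are also counted at an unadjusted p-value under 0.05. Only the variation between mice of the same group was tested for the members. RNA was sequenced from the muscle of 5 mice given vehicle, 6 given GDF15 and 5 that were pair-fed, 1 library per mouse. All were wild-type male mice on a C57BL/6 background by the labels (C57BL/6J in the study's methods), housed singly at 29 °C and fed a NASH diet (a diet used to bring on fatty liver disease) from 8 weeks of age. GDF15-treated mice received recombinant growth differentiation factor 15, a stress hormone that lowers food intake through a receptor of the hindbrain, by 1 subcutaneous injection a day early in the light phase. The labels list several doses without saying which of them these mice received. The ration of the pair-fed mice was what their GDF15-treated counterparts had eaten on the previous day. The study's methods state that mice were killed in the fed state. The hour of dissection, and the hours at which pair-fed mice ate their ration, are not given in the sources used here, so that their part in the levels of genes that cycle over the day was not tested.

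The mammalian clock is a feedback loop of transcription. CLOCK or NPAS2 pairs with BMAL1, the product of Arntl, and this activator binds E-boxes in the promoters of the Per, Cry and Ciart genes and of the Bhlhe genes. PER and CRY proteins then gather into a complex that silences CLOCK and BMAL1, and CIART (also called CHRONO) binds BMAL1 and represses it as well. BHLHE40 and BHLHE41, known as DEC1 and DEC2, compete for the E-box itself. Skeletal muscle carries its own clock, which is known to be set by feeding, activity and hormones. Per1 and Per2 also respond directly to glucocorticoids and to cAMP signalling.

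Because the members share regulators known from textbook accounts of the clock, the stretch before the start of 4 of them is shown. RefSeq (GRCm38.p6, the assembly also called mm10) held a promoter for 6 of the 8 members, as 7 entries, since Per1 had entries for 2 starts. No entry was matched for Per2 or Bhlhe40. The 250 bases before each start were searched on both strands for the E-box CACGTG, the related E'-box CACGTT, the D-box (TTATGTAA or TTACGTAA), the cAMP response element TGACGTCA and its core TGACG. The core is contained in the full element, and none of the other motifs contains another. Capitals mark the matches, and bases that lie in an annotated exon were left off.

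Ciart (chr3:95882252-95882478, minus strand): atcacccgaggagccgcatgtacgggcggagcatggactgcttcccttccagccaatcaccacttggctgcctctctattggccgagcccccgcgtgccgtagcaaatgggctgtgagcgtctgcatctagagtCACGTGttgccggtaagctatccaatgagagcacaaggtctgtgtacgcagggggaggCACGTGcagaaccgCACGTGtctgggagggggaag
Per1 (chr11:69098699-69098947, plus strand): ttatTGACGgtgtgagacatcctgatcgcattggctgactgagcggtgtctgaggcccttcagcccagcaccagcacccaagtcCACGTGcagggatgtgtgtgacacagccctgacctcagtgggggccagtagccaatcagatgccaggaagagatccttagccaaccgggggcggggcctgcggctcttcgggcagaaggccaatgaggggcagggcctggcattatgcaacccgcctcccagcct
Per3 (chr4:151044666-151044915, minus strand): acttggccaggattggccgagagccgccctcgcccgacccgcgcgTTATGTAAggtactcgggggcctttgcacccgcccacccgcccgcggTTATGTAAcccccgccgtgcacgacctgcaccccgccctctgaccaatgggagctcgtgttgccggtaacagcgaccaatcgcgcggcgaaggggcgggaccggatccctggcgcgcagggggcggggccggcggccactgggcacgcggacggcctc
Cry1 (chr10:85185065-85185304, minus strand): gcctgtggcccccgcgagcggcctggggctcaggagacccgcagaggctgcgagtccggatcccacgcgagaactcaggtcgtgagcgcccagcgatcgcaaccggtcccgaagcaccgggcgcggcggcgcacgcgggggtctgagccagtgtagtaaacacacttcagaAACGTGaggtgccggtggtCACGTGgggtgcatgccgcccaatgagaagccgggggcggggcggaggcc

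The Ciart promoter held 3 E-boxes, at 116, 58 and 44 bases before the start. Per1 held 1 E-box at 166 bases and 1 TGACG core at 246 bases before the start shown, and the entry for its other start held 1 core at 132 bases and no E-box. The Per3 window held 2 D-boxes, at 205 and 158 bases, and none of the E-box letters. Cry1 held 1 E-box at 60 bases and 1 E'-box at 79 bases, with a core at 8 bases that falls in the exon. Of those not printed, Cry2 held an E'-box at 166 bases and a core at 209 bases, and Bhlhe41 held an E-box at 153 bases. Among 32851 RefSeq mouse promoters of the same length, 6.02% held the E-box, 3.85% the E'-box, 0.93% the D-box, 1.55% the full cAMP response element and 17.8% its core. The matches describe letters and not binding.

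All values below are normalized counts, obtained by transforming the deposited log2 values back. The summed counts corresponded to about 9482763 to 15039282 reads per library, with GDF15-treated mouse 4 the shallowest. The markers of fast fibres, which make up most of this muscle, took 21.3% to 24.3% of the counts of a library. The summed levels of 9 marker lists (fast and slow fibre, adipocyte, red blood cell, Schwann cell, endothelium, macrophage, fibroblast and satellite cell) overlapped between all 3 groups, but not evenly. Fast-fibre sums were above all vehicle-treated mice in 4 of 5 pair-fed and 2 of 6 GDF15-treated mice, and adipocyte sums below all of them in 4 of 5 and 4 of 6 and above all of them in the other 1 and 2. Endothelial sums were below all vehicle-treated mice in 3 of 5 pair-fed and 5 of 6 GDF15-treated mice, and macrophage sums above them in 0 of 5 and 4 of 6. Schwann-cell sums were below all vehicle-treated mice in 3 and above them in 1 of 5 pair-fed mice, and slow-fibre sums below in 2 and above in 2 (ratio of means 1.54). Set against pair-fed mice, macrophage sums were above all of them in 4 of 6 GDF15-treated mice (ratio of means 1.41) and fast-fibre sums below all of them in 3 of 6 (0.93). The ratio was 1.33 for Schwann-cell and 1.26 for fibroblast sums, with 0 and 2 of 6 above all pair-fed mice. The part of these markers in the results below was not tested. In whole muscle, fewer cells that express a gene and less RNA of it per cell cannot be told apart. The labels number the mice from 1 to 6, but mice with the same number are different animals.

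Per kilobase of the longest coding transcript, Bhlhe40 had the highest level in every group and Per2 the lowest. This scale sets genes against each other only as far as that transcript is the one expressed, which was not examined. In vehicle-treated mice, Bhlhe40 stood at 611 ± 75.8 normalized counts per kilobase (SD, n = 5), followed by Bhlhe41 (171 ± 29.9), Cry2 (125 ± 8.83), Per1 (95.2 ± 12.9), Cry1 (79.7 ± 6.93), Per3 (53.4 ± 4.74), Ciart (20.9 ± 8.72) and Per2 (15.62 ± 2.59). The values of Bhlhe41 and Cry2, of Per1 and Cry1, and of Ciart and Per2 overlapped between mice, so that these neighbours did not separate. In GDF15-treated mice (n = 6), Bhlhe40 at 620 ± 105 was followed by Bhlhe41 (216 ± 15.21), Per1 (196 ± 41.1), Cry2 (159 ± 17.5), Cry1 (84.1 ± 14.0), Per3 (73.2 ± 5.02), Ciart (41.6 ± 12.0) and Per2 (39.7 ± 10.2). There the neighbours Bhlhe41 and Per1, Per1 and Cry2, Cry1 and Per3, and Ciart and Per2 overlapped. In pair-fed mice (n = 5), the order was Bhlhe40 (682 ± 85.1), Per1 (263 ± 39.4), Bhlhe41 (232 ± 21.8), Cry2 (197 ± 22.8), Per3 (92.0 ± 5.79), Cry1 (72.6 ± 4.30), Ciart (61.7 ± 5.66) and Per2 (47.6 ± 4.62). In that group Per1 overlapped Bhlhe41, Bhlhe41 overlapped Cry2, and Ciart overlapped Per2. Per1 thus ranked 4 of 8 under vehicle, 3 of 8 under GDF15 and 2 of 8 in pair-fed mice.

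**Figure D1:**
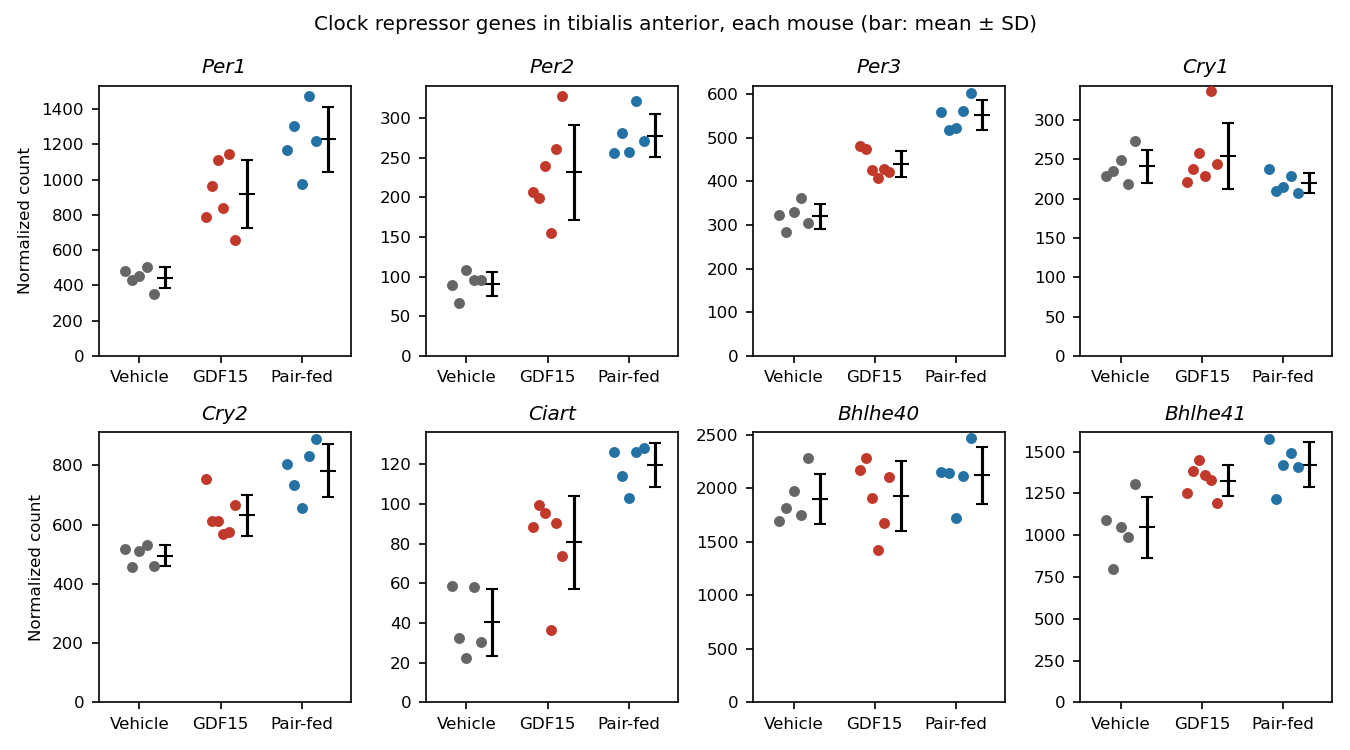
Normalized counts of the 8 repressor genes (vertical axes, starting at 0, with a scale for each gene) in every mouse of the vehicle, GDF15 and pair-fed groups. Points are single mice and bars give the mean ± SD; the pair-fed points of Per1, Per2, Per3, Cry2 and Ciart lie above all vehicle points, while those of Cry1, Bhlhe40 and Bhlhe41 overlap them.

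Per1 (chr11:69095217-69109960, plus strand, GRCm38), a core component of the PER and CRY complex and the Period gene that reacts most readily to outside signals, stood at 482, 433, 455, 505 and 348 normalized counts in vehicle-treated mice 1 to 5. Pair-fed mice 2 to 6 had 1170, 1306, 973, 1475 and 1220. The GDF15-treated mice ranged from 658 to 1148, with a median of 901. Every pair-fed and every GDF15-treated mouse was above every vehicle-treated mouse, and 4 of the 6 GDF15-treated mice were below all pair-fed mice. The log2 fold change against vehicle was 1.46 ± 0.14 (SE) in pair-fed and 1.03 ± 0.13 in GDF15-treated mice, or 2.76-fold and 2.04-fold.

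Per2 (chr1:91415982-91459324, minus strand), whose loss is known to disturb daily rhythms, stood at 88.9, 67.1, 108, 95.5 and 95.9 normalized counts in vehicle-treated mice. Pair-fed mice had 256, 282, 258, 322 and 271, and GDF15-treated mice 155 to 327 with a median of 223. No pair-fed or GDF15-treated mouse came down to the vehicle range. The log2 fold changes were 1.61 ± 0.16 (SE) in pair-fed and 1.31 ± 0.15 in GDF15-treated mice, or 3.05-fold and 2.49-fold. The GDF15 group was more spread out than the pair-fed group, with a coefficient of variation of 25.7% against 9.71%, and its mouse 6 exceeded every pair-fed mouse.

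Per3 (chr4:151003652-151044665, minus strand), a Period gene that the loop can run without, varied least of the 8 between mice of a group, with a pooled SD of 0.11 on the log2 scale. Its counts were 322, 285, 330, 361 and 304 under vehicle and 558, 517, 521, 562 and 602 in pair-fed mice. GDF15-treated mice had 407 to 481, with a median of 427. The 3 groups did not overlap for this gene, with the GDF15 group between the other two. The log2 fold change against vehicle was 0.79 ± 0.07 (SE) in pair-fed and 0.46 ± 0.07 in GDF15-treated mice, or 1.72-fold and 1.37-fold.

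The cryptochromes differed from each other. Cry2 (chr2:92403646-92434043, minus strand), whose protein represses CLOCK and BMAL1 together with PER, had 518, 456, 511, 533 and 460 normalized counts under vehicle. Pair-fed mice had 804, 734, 655, 830 and 889, and GDF15-treated mice 567 to 754 with a median of 611. Both of these groups lay above vehicle in every mouse, with log2 fold changes of 0.65 ± 0.09 (SE) and 0.34 ± 0.08. Cry1 (chr10:85131700-85185064, minus strand), the stronger repressor of the 2 cryptochromes, had 228, 236, 249, 219 and 273 counts under vehicle and 238, 210, 215, 228 and 207 in pair-fed mice. The GDF15 group ranged from 222 to 337 with a median of 241, and all 3 groups overlapped. Its log2 fold change against vehicle was -0.13 ± 0.10 (SE, 95% interval -0.34 to 0.08) in pair-fed and 0.07 ± 0.09 (-0.13 to 0.27) in GDF15-treated mice. The ratio of Cry2 to Cry1 counts within a library was therefore 2.07 ± 0.29 (SD, n = 5) under vehicle, 2.54 ± 0.55 (n = 6) under GDF15 and 3.57 ± 0.46 (n = 5) in pair-fed mice, with all pair-fed ratios (3.04 to 4.29) above all vehicle ratios (1.68 to 2.43). An exon of D930015M05Rik on the other strand overlaps exons of Cry2, and the strand setting of the quantification is not given in the sources used here.

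Ciart (chr3:95878503-95882251, minus strand), which had the 3 E-boxes shown above, was the most variable member, with a pooled within-group SD of 0.48 on the log2 scale. Its counts were 58.8, 32.6, 22.3, 58.2 and 30.4 under vehicle. They were 127, 114, 103, 126 and 129 in pair-fed mice. GDF15-treated mice had 36.7 to 99.5, with a median of 89.4, and only mouse 4, with the lowest value, fell into the vehicle range. The log2 fold change was 1.64 ± 0.27 (SE) in pair-fed and 1.01 ± 0.26 in GDF15-treated mice, or 3.11-fold and 2.01-fold.

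Of the genes of the DEC repressors, Bhlhe40 (chr6:108660629-108666925, plus strand) had 1691, 1813, 1977, 1752 and 2279 counts under vehicle and 2154, 2146, 1724, 2114 and 2470 in pair-fed mice. GDF15-treated mice had 1423 to 2285, with a median of 2011, and the 3 groups overlapped. The log2 fold change was 0.16 ± 0.12 (SE, 95% interval -0.09 to 0.40) in pair-fed and 0.01 ± 0.11 (-0.23 to 0.25) in GDF15-treated mice. Bhlhe41 (chr6:145858243-145865558, minus strand) had 1094, 799, 1051, 989 and 1307 counts under vehicle and 1576, 1216, 1417, 1494 and 1410 in pair-fed mice, with 1192 to 1452 and a median of 1343 under GDF15. All but 1 of the pair-fed mice and 4 of the 6 GDF15-treated mice were above all vehicle-treated mice, of which mouse 5 was the highest. The log2 fold changes were 0.45 ± 0.10 (SE) and 0.36 ± 0.09. Each Bhlhe gene has an exon overlap on the other strand, with 0610040F04Rik for Bhlhe40 and with Gm43909 for Bhlhe41.

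The study's thresholds for this muscle were applied to a limma fit of 11841 genes, namely 0.1 for the adjusted p-value and 0.6 for the size of the log2 fold change. By these, 5 of the 8 members (Per1, Per2, Per3, Cry2 and Ciart) were past both and higher in pair-fed than in vehicle-treated mice, where 0.819% of all tested genes were past both. The same 5 did not overlap between these groups, as did not 5.44% of all genes. In GDF15-treated against vehicle-treated mice, Per1 and Per2 were past both thresholds, beside 0.304% of all genes, and Per1, Per2, Per3 and Cry2 did not overlap, beside 1.65% of all genes. The median log2 fold change of the 8 members was 0.72 in pair-fed and 0.41 in GDF15-treated mice, while that of all tested genes was 0.00 in each. These comparisons share the vehicle-treated mice, and nothing is read from the counts, since the members were chosen with them known. Ciart was past both thresholds in GDF15-treated mice once vehicle-treated mouse 1 (log2 fold change 1.16), vehicle-treated mouse 4 (1.16) or GDF15-treated mouse 4 (1.22) was left out, and with library quality weights and all mice kept (1.01).

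**Figure D2:**
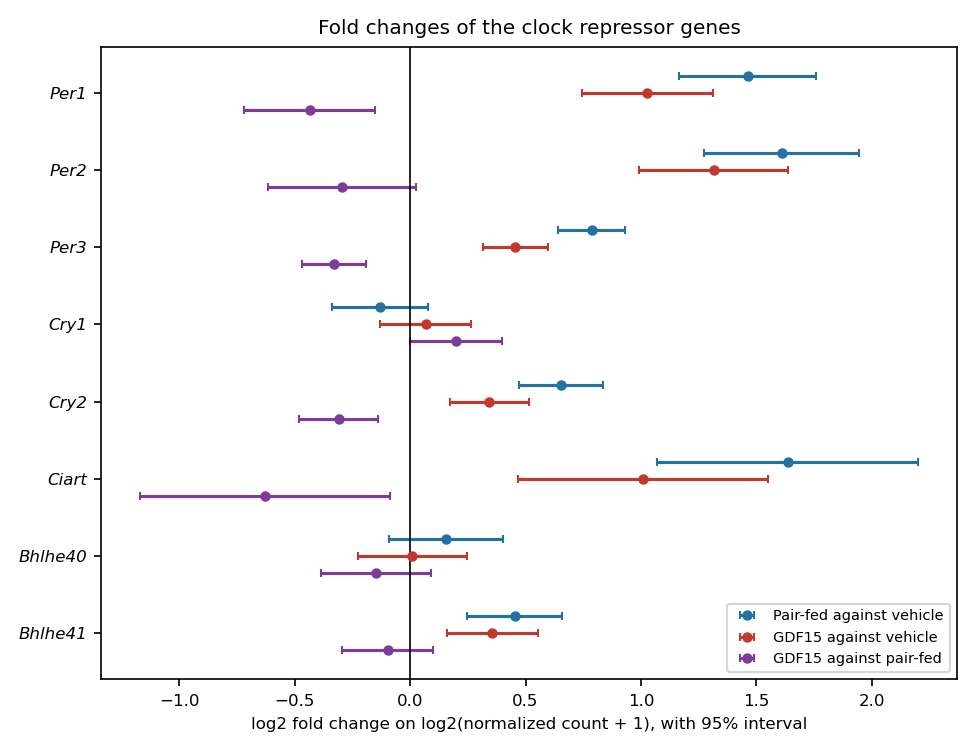
Log2 fold changes of the 8 repressor genes on the log2(normalized count + 1) scale (horizontal axis) in 3 comparisons, with 95% intervals from limma. The intervals of Per1, Per3, Cry2 and Ciart lie above 0 in both comparisons with vehicle and below 0 for GDF15 against pair-fed, while those of Bhlhe40 include 0 in all 3.

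The comparison of GDF15-treated with pair-fed mice sets 2 groups given about the same amount of food beside each other. Per3 was lower in GDF15-treated mice by 0.33 ± 0.07 (SE) on the log2 scale, or at 0.796 of the pair-fed level (95% interval of the log2 difference -0.47 to -0.19). Every GDF15-treated mouse, 6 of 6, was below every pair-fed mouse. Cry2 was lower by 0.31 ± 0.08, or at 0.807 of the pair-fed level (-0.48 to -0.14), and 4 of 6 GDF15-treated mice were below all pair-fed mice. Of the 8 members, these 2 were under the threshold of the adjusted p-value in limma, as were 2.17% of all genes, and 0 of 8 were also past the fold change of 0.6, beside 0.279% of all genes. The levels of both groups relative to vehicle were known when the members were chosen, so that this difference is not independent of the choice and nothing is read from the counts.

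The remaining members were past neither threshold or past the fold change alone. Per1 differed by -0.43 ± 0.13 (SE, 95% interval -0.72 to -0.15) and Per2 by -0.30 ± 0.15 (-0.62 to 0.03), or -0.19 without GDF15-treated mouse 4. On this scale Ciart had the largest difference of the 8, -0.63 ± 0.26 (-1.17 to -0.09), and like Per3 it did not overlap between the groups, as did not 1.77% of all genes. On the deposited log2 values Ciart was at -0.22 and Per1, with a larger difference, at -0.34. Without GDF15-treated mouse 4 the difference of Ciart was -0.42. Cry1 was the single member with a higher mean in GDF15-treated mice, by 0.20 ± 0.09 (0.00 to 0.40), and by 0.12 without GDF15-treated mouse 5, which had its highest count of 337. Bhlhe40 and Bhlhe41 differed by -0.15 ± 0.11 (-0.38 to 0.09) and -0.10 ± 0.09 (-0.29 to 0.10). Bhlhe40 differed by -0.06 without GDF15-treated mouse 4 and by -0.09 without pair-fed mouse 6, and Bhlhe41 by -0.06 without pair-fed mouse 2 and by -0.15 without pair-fed mouse 3. The count at an unadjusted p-value under 0.05 was 5 of 8 and the median difference -0.30, beside 1559 of 11841 genes and a median of 0.00 over all. The count of 2 under the adjusted p-value lost Cry2 without GDF15-treated mouse 2, 3, 4 or 5 or pair-fed mouse 2, 5 or 6, and gained Per1 without GDF15-treated mouse 5 or pair-fed mouse 4. With all mice kept, it also lost Cry2 without the trend of the limma fit, with only the 2 groups compared, and with library quality weights.

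The positive limb that the repressors act on and the genes next to it gave 22 tested genes of a list of 24. Fbxl21 had no row and Rorb, with 0 to 6.85 normalized counts per library, was below the minimum. In pair-fed against vehicle-treated mice, 2 were past both thresholds and higher (Dbp and Usp2) and 2 were past them and lower (Arntl and Npas2), beside 0.819% of all genes past both in either direction. In GDF15-treated against vehicle-treated mice, which shares the vehicle group, 2 were again past them and higher and 2 lower, beside 0.304% of all genes, with the values given below. Npas2 reached the minimum of 10 only through the vehicle group, where it is high, so that its place among the lower genes was favoured by the minimum. With a minimum of 50, which leaves Npas2 out, 3 genes were past both thresholds in each of these comparisons. Like the members, these genes were in view when the members were chosen, so the counts are descriptive.

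Of the 4 activator genes, Arntl and Npas2 were past the thresholds in these comparisons and Clock and Arntl2 were not. Arntl, which encodes BMAL1, had 330 to 452 normalized counts under vehicle (median 396), 212 to 296 under GDF15 (median 253) and 155 to 191 in pair-fed mice (median 181). The 3 groups did not overlap, in the opposite order to Per3. Its log2 fold change was -1.11 ± 0.10 (SE) in pair-fed and -0.61 ± 0.10 in GDF15-treated mice, the latter close to the threshold of 0.6. Arntl was higher in GDF15-treated than in pair-fed mice by 0.50 ± 0.10 (95% interval 0.29 to 0.71), in 6 of 6 mice. It was the 1 gene of the 22 under the threshold of the adjusted p-value in that comparison, beside 2.17% of all genes, and 0 of the 22 were past both thresholds, beside 0.279%. At an unadjusted p-value under 0.05 in limma there were 7 of the 22 and 1559 of 11841 genes. Clock, the partner of BMAL1, also lay in 3 separate ranges, 314 to 416, 276 to 311 and 211 to 268 counts for vehicle, GDF15 and pair-fed mice. Its difference between GDF15-treated and pair-fed mice was 0.26 ± 0.08 (0.10 to 0.43). Npas2, which can stand in for CLOCK, was at low counts throughout, with means of 23.7 ± 10.6 (SD, n = 5) under vehicle, 3.82 ± 2.02 (n = 6) under GDF15 and 5.71 ± 4.51 (n = 5) in pair-fed mice. Its log2 fold changes were -2.34 ± 0.44 (SE) under GDF15 and -1.94 ± 0.46 in pair-fed mice. Arntl2, a paralogue of Arntl, overlapped between all groups, with log2 fold changes of -0.17 ± 0.40 and -0.36 ± 0.42.

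Set as a ratio within each library, Per1 counts were 1.18 ± 0.27 times those of Arntl under vehicle (SD, n = 5), 3.75 ± 1.18 times under GDF15 (n = 6) and 7.05 ± 1.63 times in pair-fed mice (n = 5). The ranges were 0.84 to 1.53 under vehicle, 2.40 to 5.42 under GDF15 and 5.08 to 9.50 in pair-fed mice. The ratio of Per2 to Arntl was 0.24 ± 0.07, 0.94 ± 0.26 and 1.59 ± 0.29 in the same order of groups, and its ranges, 0.17 to 0.33, 0.52 to 1.24 and 1.35 to 2.07, did not overlap.

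Among the genes driven by the clock, Dbp, a PAR bZIP factor that binds D-boxes such as those shown for Per3, had 615 to 995 counts under vehicle, 949 to 1734 under GDF15 and 1358 to 1850 in pair-fed mice. Its log2 fold change was 1.03 ± 0.14 (SE) in pair-fed and 0.79 ± 0.14 in GDF15-treated mice, and GDF15-treated and pair-fed mice differed by -0.23 ± 0.14 (-0.52 to 0.06). Usp2, a deubiquitinase that acts on clock proteins, was at log2 fold changes of 0.67 ± 0.07 and 0.60 ± 0.07. Nr1d1, which encodes the Arntl repressor REV-ERBα, had a lower mean than vehicle in both groups, by -0.39 ± 0.09 in pair-fed mice, where the groups did not overlap, and -0.21 ± 0.09 in GDF15-treated mice, neither past the fold change threshold. Its paralogue Nr1d2 had a higher mean than vehicle, by 0.20 ± 0.04 in pair-fed mice, also without overlap, and by 0.13 ± 0.04 in GDF15-treated mice. In GDF15 against pair-fed mice Nr1d1 differed by 0.18 ± 0.09 (-0.01 to 0.36).

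**Figure D3:**
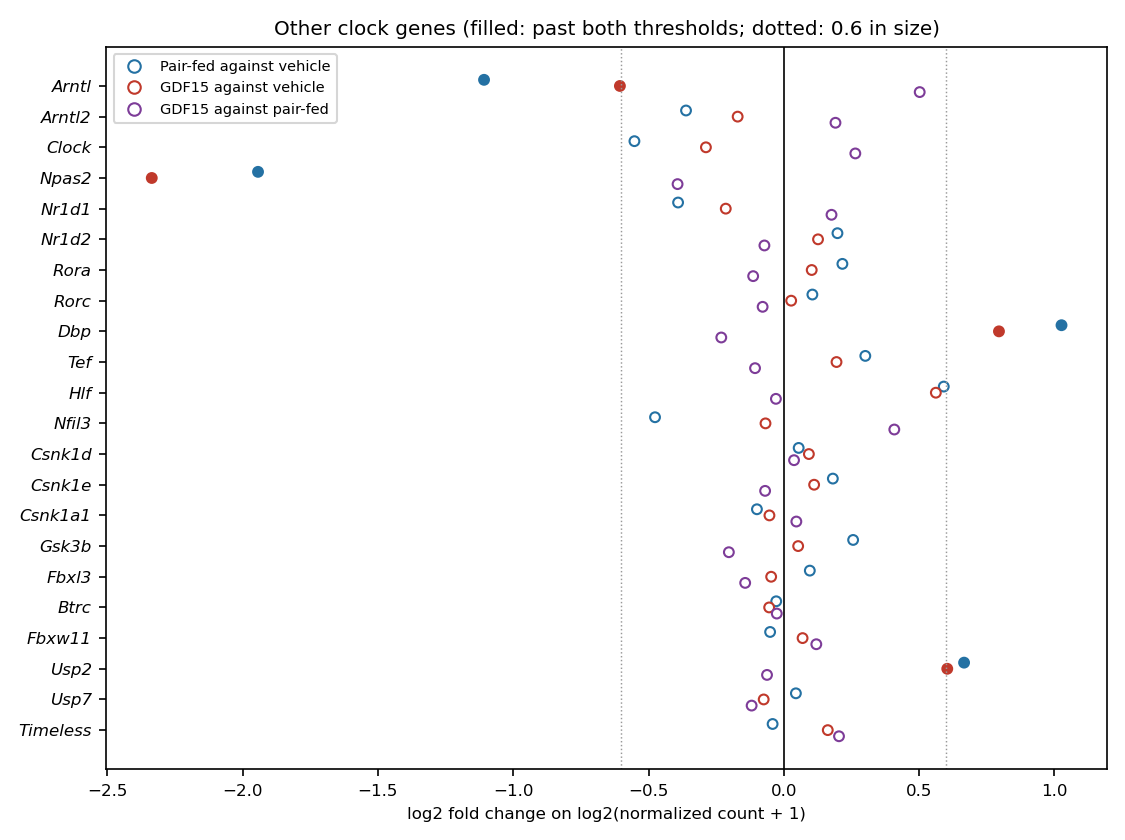
Log2 fold changes (horizontal axis, log2(normalized count + 1) scale) of 22 other clock genes in the 3 comparisons, with filled points for genes past both thresholds and dotted lines at a size of 0.6. Arntl and Npas2 are filled on the left and Dbp and Usp2 on the right in both comparisons with vehicle, and no point for GDF15 against pair-fed is filled.

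Since differences between groups were known beforehand, the members were also compared as they varied from mouse to mouse inside the groups, with each value taken as a deviation from the mean of its own group. Of the 28 pairs of members, 22 had a positive correlation over the 16 mice, with a median Pearson's r of 0.22. Without GDF15-treated mouse 4, the library of lowest depth, 19 of the 28 were positive and the median was 0.12, and without each of the other mice in turn 18 to 24 were positive with medians of 0.17 to 0.26. The pair Per3 and Cry2 passed the correction, with r = 0.76 (permutation test within groups, 100000 resamples, two-sided, p = 0.00061, adjusted p = 0.0171 over the 28 pairs) and Spearman's rho = 0.80 (permutation p = 0.00071, adjusted p = 0.0199). Leaving out vehicle-treated mice 2 and 4, the farthest from the median of Per3, gave r = 0.77. Every other pair missed the correction, and 0 others had an unadjusted p-value under 0.05 for r in the permutation test. By rho, 3 pairs that include Ciart were under 0.05 before the correction in the permutation test and not after it: Per1 and Ciart (rho = 0.58, p = 0.0232, adjusted p = 0.289), Per3 and Ciart (rho = 0.59, p = 0.0310, adjusted p = 0.289) and Cry2 and Ciart (rho = 0.49, p = 0.0470, adjusted p = 0.323). Per1 and Per2, both at over 2-fold the vehicle level in each of the other groups, had r = 0.04 within groups (permutation p = 0.92) and rho = 0.28. There, GDF15-treated mouse 6 was the lowest of its group for Per1 and the highest for Per2, and r was 0.60 without it and vehicle-treated mouse 5. Cry1 and Cry2 had r = -0.35 (permutation p = 0.219, adjusted p = 0.767).

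The correlation of Per3 and Cry2 lay between 0.71 and 0.83 with each mouse left out in turn, but its adjusted p-value in the permutation test rose above 0.05 in 6 of the 16 cases. These were 0.0792 without vehicle-treated mouse 2, 0.0745 without vehicle-treated mouse 4, 0.124 without GDF15-treated mouse 1, 0.0594 without GDF15-treated mouse 4, 0.0507 without pair-fed mouse 2 and 0.0694 without pair-fed mouse 6. GDF15-treated mouse 1 and pair-fed mouse 6, which had the highest Per3 and Cry2 values of their groups, also had high summed slow-fibre markers (Myh7, Tnnt1, Tnni1, Tnnc1 and Atp2a2), 2523 and 1717 normalized counts. Pair-fed mouse 3, low for both genes, had 2305, and the other 13 mice had 685 to 940. The part of the fibre markers in this correlation was not tested.

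**Figure D4:**
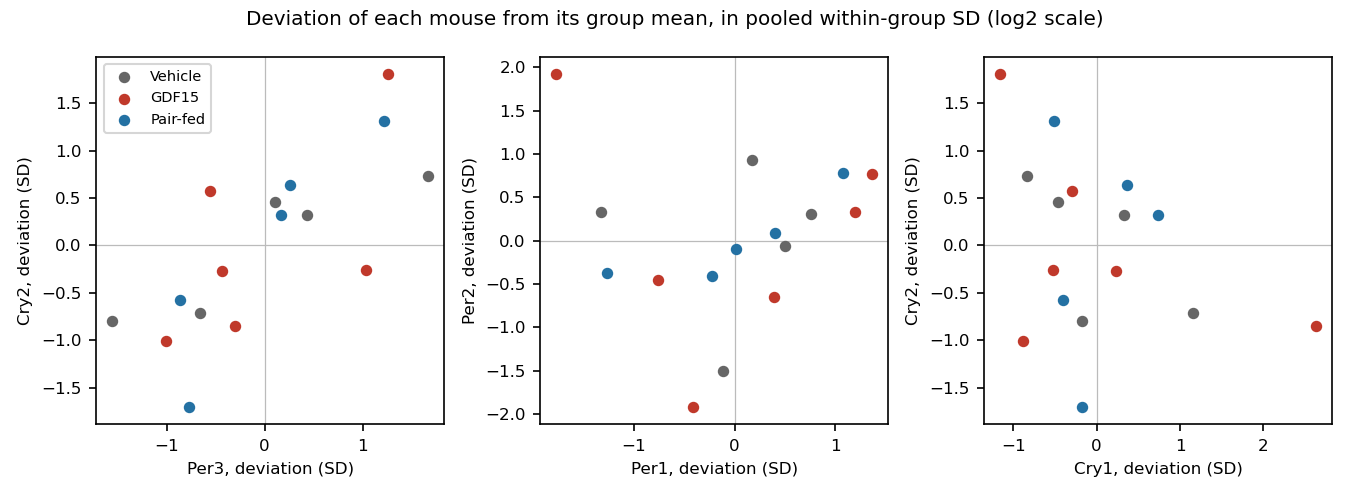
Deviation of each of the 16 mice from the mean of its group, in units of the pooled within-group SD on the log2 scale, for Per3 and Cry2, Per1 and Per2, and Cry1 and Cry2 (horizontal and vertical axes of the 3 panels). Points are single mice by group; Per3 and Cry2 rise together (r = 0.76), while Per1 and Per2 (r = 0.04) and Cry1 and Cry2 (r = -0.35) do not.

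Over all 16 libraries, differences between groups included, the tested genes outside the 8 whose levels were most like each member are given as a description. The points share libraries, groups and scaling. Per1 was closest to Usp2 (r = 0.94) and Timp3 (0.89), Per2 to Tef (0.92) and Lrig1 (0.91), and Per3 to Klf9 (0.95) and Dbp (0.92). Arntl had the lowest r of all tested genes with each of the 3 Period genes, at -0.94 for Per1, -0.89 for Per2 and -0.94 for Per3. Cry2 was closest to Atp2a1 (0.93), the calcium pump of fast fibres and one of the fast-fibre markers, and to Aebp1 (0.93), and was most unlike Masp1 (-0.91). Ciart was closest to Trip10 (0.94) and Tk1 (0.90), with Pde4a the lowest (-0.89). Bhlhe41 shared Usp2 (0.84) with Per1, followed by Abhd16a (0.83), with Neo1 the lowest (-0.84). Cry1 was closest to Yipf5 (r = 0.83, rho = 0.69) and Polr3d (r = 0.81, rho = 0.53) and most unlike Zfp943 (r = -0.85, rho = -0.54), where the ranks agreed less than the values. The nearest and the most unlike of Cry1, Cry2, Ciart and Bhlhe40 held no gene of the clock list (for Bhlhe40, H2aj at 0.83, Med11 at 0.80, Slc25a22 at -0.87).

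Known routes that induce the Period genes were followed through listed targets. Of 8 glucocorticoid-responsive genes, 0 were past both thresholds in pair-fed against vehicle-treated mice, beside 0.819% of all genes, and the median difference was 0.19 on the log2 scale, but 3 of the 8 were higher without overlap, beside 5.44% of all genes. Klf9, the gene most like Per3 above, was among these 3, with means of 2706 ± 89.3 (SD, n = 5) under vehicle, 2993 ± 87.3 (n = 6) under GDF15 and 3336 ± 87.9 (n = 5) in pair-fed mice. It was lower in GDF15-treated than in pair-fed mice in 6 of 6, by 0.16 ± 0.03 (SE). In GDF15-treated against vehicle-treated mice the median difference of the 8 was 0.27, and 2 of the 8 were higher without overlap, beside 1.65% of all genes. In GDF15-treated mice 1 of the 8, Fkbp5, a co-chaperone of the glucocorticoid receptor, was past both thresholds and higher, against vehicle as well as against pair-fed mice, beside 0.304% and 0.279% of all genes. Its counts were 303 to 589 under vehicle, 518 to 1002 under GDF15 and 322 to 544 in pair-fed mice, and the difference between GDF15-treated and pair-fed mice was 0.94 ± 0.17 (SE, 95% interval 0.58 to 1.30). The list, like the members, was written with earlier results of these data known, so that its counts are a description. The highest mean was in the GDF15 group for 4 of the 8 glucocorticoid-responsive genes, in the pair-fed group for 3 and in the vehicle group for 1. For the CREB and immediate early list it was in the GDF15 group for 8 of 9 and in the pair-fed group for 1, with median differences of 0.39 against vehicle and 0.27 against pair-fed mice on the log2 scale. The tally of highest means was not made over all genes, so nothing is read from it. Single mice also weigh on these means, with a coefficient of variation within the GDF15 group of up to 133% in this list. Of 9 tested targets of CREB and immediate early genes, of 10 listed, 0 were past both thresholds in any comparison. At an unadjusted p-value under 0.05 in limma, the counts for these 9 were 0 in pair-fed against vehicle, 2 in GDF15 against vehicle and 2 in GDF15 against pair-fed mice, and for the 8 glucocorticoid-responsive genes they were 4, 5 and 3, beside 2234, 1308 and 1559 of all 11841 genes.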

How the data were processed

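RNA-seq of 16 tibialis anterior libraries was used, grouped by the treatment in the labels. The authors trimmed 2×50 bp read pairs with Trim Galore, estimated transcript abundance by Salmon and scaled libraries with DESeq2; the submitters' processing notes name the build mm10. The tool versions and strand setting are not given in the sources used here. The authors deposited log2 values of 7.32 to 19.96 for 14538 genes in the form of a variance stabilizing transformation, and these were transformed back to normalized counts. That form was inferred from the values and not stated. Among low values, for genes with a single annotated transcript, 76.6% to 93.8% per library were within 0.1 reads of a whole number, and 21.1% to 25.7% for genes with over 4 transcripts, so that reads were not recovered. Depth is therefore approximate, and low counts are the least precise.

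Genes averaging 10 or more normalized counts, 11841 in all, were fitted on log2(normalized count + 1), which understates changes of low genes, with limma 3.58.1 (R 4.3.3; trend, all 3 groups). Adjusted p-values are by Benjamini-Hochberg. The script was tested on simulated data. Permutations used numpy 2.4.6, and positions come from GENCODE vM21. Alternatives were other pseudocounts, minimum counts, scalings, thresholds, variance models, the deposited values, a mouse-number block and each library left out. Members and lists were chosen with earlier results of these data known. Named genes are all members, listed genes past the thresholds in any comparison, Arntl, Clock, Nr1d1 and Dbp, and for each member the 2 genes most like it and the 1 least like it; Arntl2 and Nr1d2 were added after their values were seen. The replicate is the mouse, with 1 library each.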

Additional observations from a re-analysis of the deposited data

Results flagged for a closer look

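In 45 sets of values, 2 held a mouse far from the others of its group by Dixon's criterion. Chance alone meets this criterion in about 1 of 20 sets. The sets were 15 genes in 3 groups, namely clock genes and the glucocorticoid-responsive Fkbp5. The criterion was applied on log2(normalized count + 1). Cry1 stood at 337 normalized counts in GDF15-treated mouse 5, while the other 5 mice of the group had 222 to 258. On the log2 scale its gap was 0.634 of the range, against a critical value of 0.625. Ciart stood at 36.7 normalized counts in GDF15-treated mouse 4, the library of lowest depth, while the other 5 had 73.7 to 99.5. Its gap was 0.697 of the range on the log2 scale, and the criterion was not applied to the counts themselves.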

How the results depend on the processing

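Of the results on counts of genes or pairs, 178 of 195 values under other settings kept the count within 1.5 times. Of the fold changes of members, 639 of 648 counted as unchanged. Against vehicle this meant a move of less than the pooled within-group SD. For GDF15 against pair-fed it meant the same sign and the same side of the thresholds. The other 9, all against vehicle, were smaller on the deposited log2 values, which compress low counts by construction. There the differences between GDF15-treated and pair-fed mice were smaller too, -0.22 for Ciart and -0.15 for Per2, moves within that SD. Per3 was at -0.22 there, a move larger than its SD of 0.105. On that scale 2 rather than 5 members and 2 rather than 4 other clock genes passed in pair-fed against vehicle, and 1 rather than 2 members and 1 rather than 4 other clock genes in GDF15 against vehicle. With no fold change threshold, 2 members and 1 other clock gene passed in GDF15 against pair-fed, 11 other clock genes in pair-fed against vehicle and 4 members in GDF15 against vehicle. With each library left out, 2 to 5 other clock genes passed in GDF15 against vehicle, the 2 without vehicle-treated mouse 2, GDF15-treated mouse 2 or GDF15-treated mouse 5, where Arntl and Usp2 (log2 fold changes of 0.60 or just above in size with all libraries) missed the fold change threshold. Pairs of members passing numbered 0 to 1. Mouse numbers mark different animals, and same-numbered mice correlated at -0.099 to 0.067. With the mouse number as a replicate block, the members past the thresholds were 0, 5 and 2 for GDF15 against pair-fed, pair-fed against vehicle and GDF15 against vehicle, as without it, and Npas2 was no longer past the thresholds for GDF15 against vehicle. The direction of Bhlhe40 in GDF15 against vehicle held in 20 of 27 settings and that of Cry1 in 26 of 27; the other directions of members held in all 27.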
